A study of Homo sapiens with 2 samples.

Results

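The interferon-stimulated antiviral genes examined here were 44 genes chosen by name, among them the IFIT, IFITM, OAS, MX, ISG15 and guanylate-binding families, and they were read as 1 row per symbol from tables that held 56638 genes. The members and the other gene lists used below were chosen with earlier results of these data known. Their shares are set beside those of all genes as description only, not as a test. All 44 members were found. Of these, 42 had at least 10 counts summed over both libraries and were compared, as were 17545 genes in all, while OAS2 and XAF1 had fewer. The 5 members that NF-kB also drives, IRF1, IRF7, OASL, GBP1 and GBP2, were kept apart from the other 39, which are called the type I interferon core.

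RNA was sequenced from TFK1, an established human cholangiocarcinoma cell line (a cancer of the bile duct), to find genes regulated by MBD2, a protein that binds methylated CpG sites. The group shMBD2 was 1 library of TFK1 cells with MBD2 knocked down, and the group shNC was 1 library of TFK1 cells with a negative control shRNA. No drug treatment was labelled for either group. According to the study's methods, shRNAs were delivered from a pLKO.1 lentiviral vector and the carrying cells were selected with a drug, puromycin or G-418, so the cells of both groups carried a lentiviral shRNA, and which of the study's MBD2 shRNAs was sequenced is not given in the labels.

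With 1 library per group there was no replicate, no p-value was computed, and every interval below covers counting error only, not the variation between cultures. The libraries held 14728814 counts in shMBD2 and 14467406 in shNC. The targeted gene MBD2 had 365 counts in shMBD2 and 1013 in shNC. All 8 markers of biliary epithelium were detected in both libraries, KRT8 with 49193 and 62047 counts, whereas the 8 leukocyte markers together had 12 counts in shMBD2 and 14 in shNC. The defining leukocyte gene PTPRC had 0 and 1. Of the 4 plasmacytoid dendritic cell markers, CLEC4C and LILRA4 had none, IL3RA had 92 and 173 counts and TCF4 had 241 and 331, both lower in shMBD2. In bulk RNA, more cells that express a gene and more RNA of that gene per cell cannot be told apart.

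Type I interferons bind the receptor pair IFNAR1 and IFNAR2, whose kinases JAK1 and TYK2 start a signal that reaches the nucleus through STAT2 and IRF9 in the complex ISGF3. ISGF3 binds the interferon-stimulated response element (ISRE) near the start of antiviral genes. Interferon gamma instead acts on the gamma-activated site (GAS), and epithelial cells, which use this system against viruses, express many of its genes at a low level without infection.

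The ISRE letters are shown because most of these promoters share them. The genes were chosen by name as interferon-stimulated, so their share of ISRE letters is not independent of that choice. The windows were those of RefSeq on GRCh38.p14, from 250 bases before to 50 after an annotated start, and they were searched on both strands for GAAA, any pair of bases and GAAA again, with overlapping matches counted. A window was given for 34 of the 42 compared members. The letters stood in 24 of these 34 (70.6%), against 1195 of the 27305 genes with a window (4.38%) and 1255 of all 35116 windows (3.57%). Among the compared genes matched to a window the share was 436 of 10674 (4.08%). The lines below give 30 bases around a match on the strand of the gene, with the matched letters in capitals, first for the 7 members with a window and a log2FC above 1, then for IFIT1, ISG20, IFIT5, EIF2AK2, PARP9 and DTX3L.
ISG15 (chr1:1013380-1013409, plus strand): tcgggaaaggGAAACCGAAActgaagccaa
IFI6 (chr1:27672329-27672358, minus strand): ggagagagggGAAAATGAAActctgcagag
IFI44L (chr1:78620365-78620394, plus strand): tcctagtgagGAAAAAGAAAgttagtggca
IFI44 (chr1:78649761-78649790, plus strand): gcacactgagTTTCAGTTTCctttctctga
GBP1 (chr1:89065316-89065345, minus strand): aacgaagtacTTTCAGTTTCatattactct
BST2 (chr19:17405741-17405770, minus strand): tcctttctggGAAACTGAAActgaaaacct
MX1 (chr21:41420559-41420588, plus strand): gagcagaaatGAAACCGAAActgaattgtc
IFIT1 (chr10:89392497-89392526, plus strand): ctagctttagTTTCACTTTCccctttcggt
ISG20 (chr15:88638937-88638966, plus strand): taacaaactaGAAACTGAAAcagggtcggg
IFIT5 (chr10:89414513-89414542, plus strand): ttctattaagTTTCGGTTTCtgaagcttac
EIF2AK2 (chr2:37156967-37156996, minus strand): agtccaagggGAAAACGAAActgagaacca
PARP9 (chr3:122564322-122564351, minus strand): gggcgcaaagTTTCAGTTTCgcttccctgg
DTX3L (chr3:122564322-122564351, plus strand): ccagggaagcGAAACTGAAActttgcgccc
Capitals that begin with TTTC are the same letters read on the other strand. PARP9 and DTX3L run in opposite directions from a shared start region, so their lines are one stretch of DNA read both ways. In IFI44L the printed 30 bases occurred a second time, 91 bases upstream, at chr1:78620274-78620303.

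Expression of the group as a whole was modestly higher after MBD2 knockdown. The summed level was 844 TPM in shMBD2 and 691 TPM in shNC, where TPM is an expression level scaled to gene length and to the library total. For each gene, log2FC is the log2 ratio of shMBD2 over shNC after TMM scaling, with a prior count of 0.5. The median log2FC of the 42 compared members was 0.42, beside -0.0082 over all 17545 genes, and the values ranged from -1.16 for ISG20 to 3.54 for GBP1. Higher values in shMBD2 were seen for 35 members and lower values for 7, where 48.9% of all genes were higher.

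A log2FC above 1 was found for 11 members (OASL, MX1, MX2, ISG15, IFI6, IFI44, IFI44L, BST2, TRIM22, GBP1 and GBP2), or 26.2% of those compared, beside 5.48% of all genes. ISG20 alone was below -1, beside 5.07% of all genes. The 95% exact interval of the split of reads lay above 0 for 27 members (64.3%, beside 19.7% of all genes) and below 0 for 3, OAS1, ISG20 and STAT2 (7.14%, beside 18.4%), and it spanned 0 for the other 12. It lay wholly above 1 for OASL, MX1, IFI44, IFI44L, GBP1 and GBP2, beside 1.37% of all genes, and wholly below -1 for none, beside 0.581%.

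**Figure D1:**
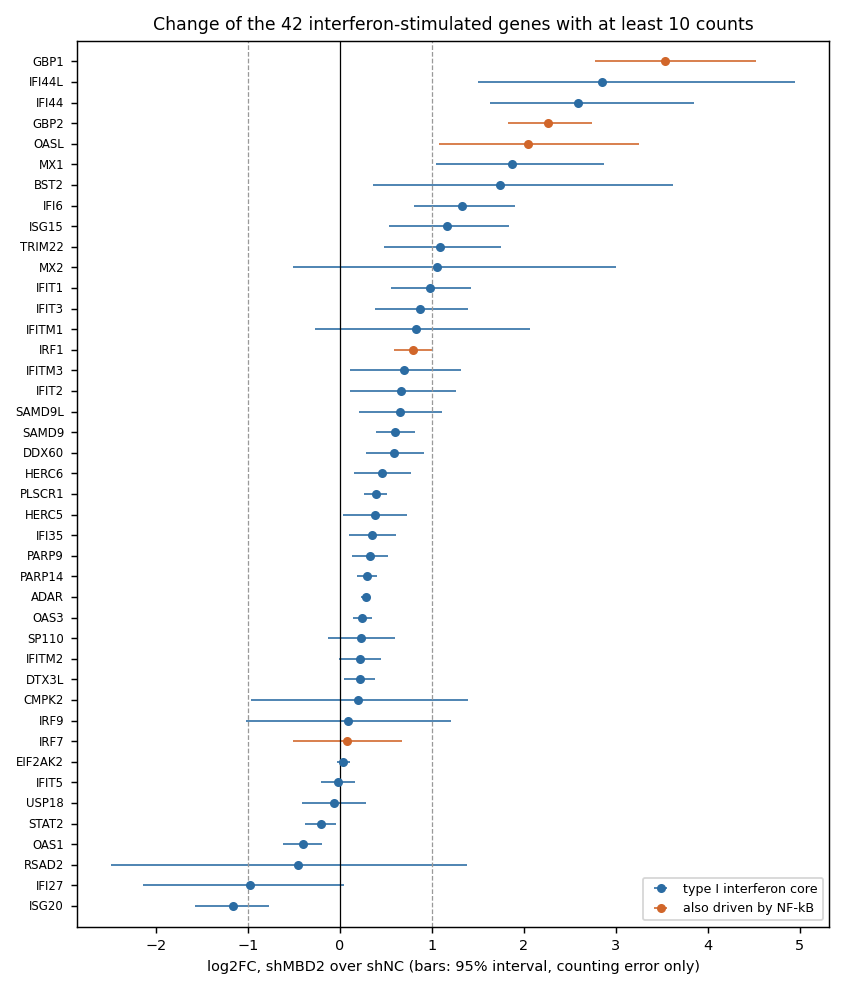
The log2FC of shMBD2 over shNC (horizontal axis) is plotted for the 42 compared genes in order, with 95% intervals that cover counting error only. The type I interferon core is blue and the genes also driven by NF-kB are orange. GBP1 stands at the top at 3.54 and ISG20 at the bottom at -1.16, and 27 intervals lie to the right of 0.

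The most abundant antiviral transcripts were not those with the largest ratio. ADAR, IFITM2, PLSCR1, EIF2AK2 and OAS3 were the 5 highest by TPM in both libraries, in that order. ADAR, which edits adenosines in double-stranded RNA, alone made up 20.6% of the summed TPM in shMBD2 and 21.1% in shNC. The 11 members with a log2FC above 1 added up to 79.3 TPM in shMBD2 and 25 in shNC, and none of them exceeded 8.53 TPM in shNC. Of the difference of 152.6 TPM between the summed levels, these 11 supplied 54.3 and ADAR 27.7. A level of at least 1 TPM was reached by 37 members in shMBD2 and 33 in shNC.

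**Figure D2:**
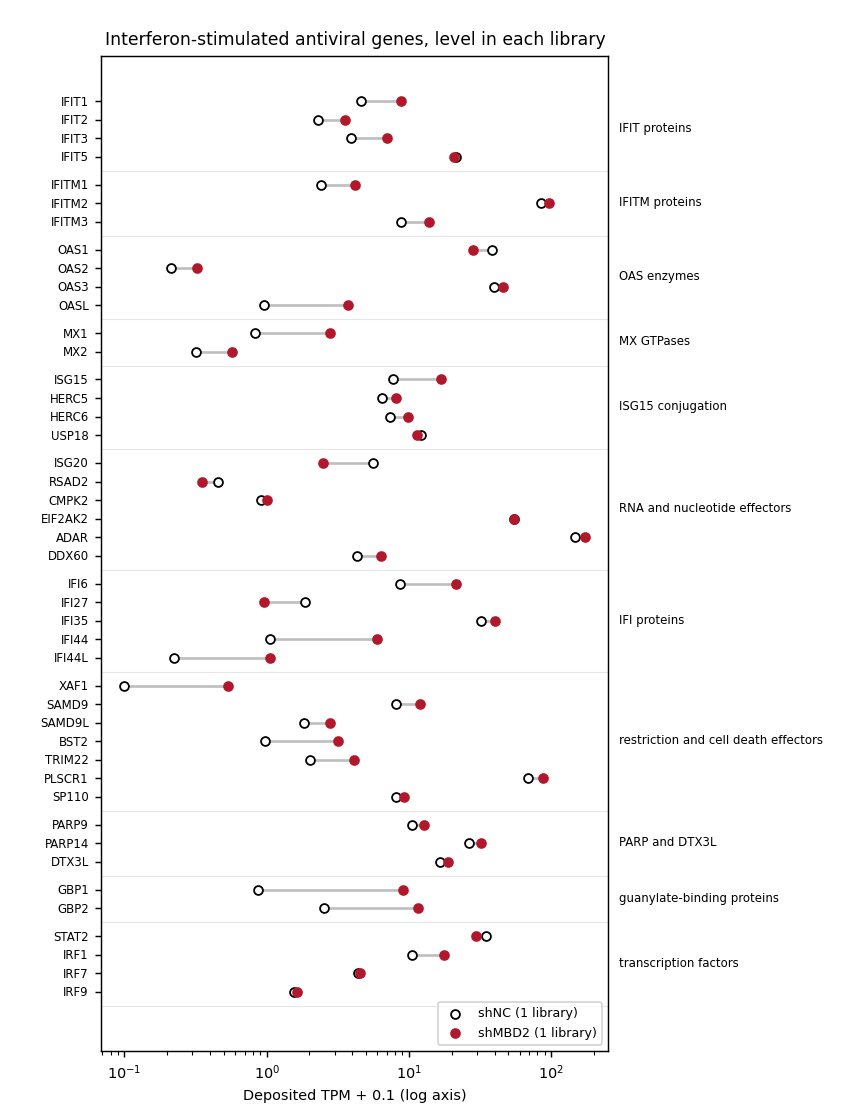
The deposited TPM plus 0.1 (log axis) is plotted for all 44 genes by role, with an open circle for the shNC library and a filled circle for the shMBD2 library. The widest separations are those of GBP1, IFI44 and XAF1, whereas EIF2AK2, IFIT5, USP18, IRF7 and IRF9 have circles that nearly coincide.

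Among the IFIT proteins, which bind viral RNA and block its translation, 3 of 4 had an interval above 0, beside 19.7% of all genes. IFIT1 had 137 counts in shMBD2 and 69 in shNC (8.65 and 4.47 TPM), a log2FC of 0.98 (interval 0.55 to 1.42). IFIT3, a partner of IFIT1, had 98 and 53 counts (log2FC 0.87, interval 0.38 to 1.39), and IFIT2 had 69 and 43 (0.67, interval 0.10 to 1.26). IFIT5 differed from these neighbours: with 471 and 475 counts its log2FC was -0.02 (interval -0.21 to 0.17), although its window held 3 matches to the ISRE letters. The spans of IFIT1, IFIT2 and IFIT3 in the deposited tables lie within that of LIPA on the opposite strand, which had 1291 and 1417 counts. The strand setting of the counting is not given in the sources used here, so reads of LIPA among theirs cannot be told apart.

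The IFITM proteins hold back virus entry at membranes. IFITM2 was the most abundant of them, with 95.8 TPM in shMBD2 and 84.1 in shNC (361 and 309 counts), and its interval just reached 0 (log2FC 0.22, interval -0.01 to 0.44). IFITM3, which acts on viruses in endosomes, had 64 and 39 counts (0.70, interval 0.11 to 1.32). For IFITM1 the counts were 20 and 11 (0.83, interval -0.28 to 2.06), and its span lies within that of IFITM2 on the same strand. The IFITM genes are related in sequence, so how reads were divided among them is uncertain.

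The OAS enzymes sense double-stranded RNA and make 2-5A, which switches on RNase L, and they did not move together. OAS1 was lower in shMBD2, with 322 counts against 425 (28.3 and 38.3 TPM), a log2FC of -0.41 (interval -0.62 to -0.20). OAS3, the next gene on chromosome 12, was higher, with 1765 and 1484 counts (45.9 and 39.6 TPM, log2FC 0.24, interval 0.14 to 0.34). The intervals of these neighbours did not overlap. OAS2 had 6 and 3 counts and was not compared. OASL, a relative without the 2-5A activity that aids RIG-I signalling, had 43 counts in shMBD2 and 10 in shNC (3.61 and 0.861 TPM), a log2FC of 2.04 (interval 1.08 to 3.25).

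MX1 and MX2 encode GTPases that trap viral nucleocapsids. MX1 had 53 counts in shMBD2 and 14 in shNC (2.67 and 0.724 TPM), a log2FC of 1.87 (interval 1.04 to 2.88). MX2 had 11 and 5 counts, and its log2FC of 1.06 carried an interval from -0.51 to 3.0, so no difference was detectable at this depth.

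ISG15 is a ubiquitin-like protein that is joined to other proteins after interferon. It had 68 counts in shMBD2 and 30 in shNC (16.7 and 7.57 TPM), a log2FC of 1.16 (interval 0.53 to 1.84). HERC5, the ligase that attaches it, had 162 and 124 counts (0.38, interval 0.03 to 0.73), and its relative HERC6 had 212 and 153 (0.46, interval 0.15 to 0.77). USP18 removes ISG15 and dampens the type I receptor. Its counts were 137 and 143, and its log2FC was -0.07 (interval -0.42 to 0.28).

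Members that act on RNA and nucleotides were mixed, with a median log2FC of 0.11 over 6. ISG20, an exonuclease of viral RNA, was the member with the lowest log2FC: it had 77 counts in shMBD2 and 172 in shNC (2.39 and 5.48 TPM), a log2FC of -1.16 (interval -1.58 to -0.77), and its window held the ISRE letters shown above. EIF2AK2, the kinase PKR that stops translation, had 3138 and 3042 counts (54.7 and 54.4 TPM), and its interval of -0.04 to 0.11 spanned 0. ADAR had 6583 and 5395 counts (174 and 146 TPM), a log2FC of 0.28 (interval 0.23 to 0.33). DDX60, a helicase, had 217 and 143 (0.59, interval 0.28 to 0.91). RSAD2, or viperin, had 5 and 7 counts and its neighbour CMPK2, a nucleotide kinase, had 15 and 13, too few to show a difference in either direction.

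Of the 5 IFI genes, IFI44, IFI44L and IFI6 stood apart. IFI44 had 57 counts in shMBD2 and 9 in shNC (5.91 and 0.957 TPM), a log2FC of 2.59 (interval 1.63 to 3.85). Its neighbour IFI44L had 32 and 4 (0.953 and 0.122 TPM), a log2FC of 2.84 (interval 1.50 to 4.95). These genes lie side by side within chr1:78619922-78664078 (GENCODE 29, GRCh38). IFI6, a small membrane protein that limits cell death, had 102 and 40 counts (21.2 and 8.53 TPM; 1.33, interval 0.80 to 1.91). IFI35 had 286 and 223 counts (0.35, interval 0.09 to 0.61). IFI27 went the other way, with 12 and 24 counts, and its interval of -2.14 to 0.05 reached 0 (log2FC -0.98).

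Of the restriction and cell death effectors, 5 of 6 compared had an interval above 0, beside 19.7% of all genes. BST2, or tetherin, which holds budding viruses at the cell surface, had 18 counts in shMBD2 and 5 in shNC (log2FC 1.74, interval 0.36 to 3.62). TRIM22, an antiviral ubiquitin ligase, had 69 and 32 (1.09, interval 0.48 to 1.75). Its span lies within that of TRIM5 on the opposite strand, which had 458 and 451 counts. SAMD9, which restricts poxviruses, had 464 and 304 counts (0.60, interval 0.39 to 0.81), and its neighbour SAMD9L had 109 and 69 (0.65, interval 0.20 to 1.11). PLSCR1, a phospholipid scramblase, had 1125 and 856 (88.1 and 68.8 TPM, 0.39, interval 0.26 to 0.52). The nuclear body protein SP110 had 143 and 121 counts and an interval of -0.13 to 0.59. XAF1, which promotes apoptosis, had 9 counts in shMBD2 and 0 in shNC, below the minimum for comparison. Set against a floor of 3 counts for the shNC library the ratio was 2.98. This ratio leaves out counting error, and the interval of the log2FC began at 0.97.

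PARP9, PARP14 and DTX3L, an ADP-ribosylation and ubiquitin ligase module of the interferon response, had close ratios. PARP9 had 494 and 392 counts (log2FC 0.32, interval 0.13 to 0.52), PARP14 had 1536 and 1247 (0.29, interval 0.18 to 0.40) and DTX3L had 626 and 537 (0.21, interval 0.04 to 0.38). The 3 genes lie on chromosome 3 within 122527924 to 122730840 (GENCODE 29, GRCh38), and their intervals overlap one another.

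The guanylate-binding proteins, which coat intracellular pathogens, had the highest log2FC of any role, with a median of 2.90 over 2. GBP1 had 157 counts in shMBD2 and 13 in shNC (9.05 and 0.769 TPM), a log2FC of 3.54 (interval 2.77 to 4.53), which ranked 69 from the highest among 17545 genes. GBP2, next to it on chromosome 1, had 243 and 50 counts (11.5 and 2.43 TPM, 2.26, interval 1.83 to 2.74). GBP1 shares much of its sequence with GBP3, so the division of reads between them is uncertain, and GBP3 had 263 and 86 counts (1.60, interval 1.25 to 1.97).

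Of the 4 transcription factors, only IRF1 (25%) had an interval above 0, beside 19.7% of all genes. IRF1, which activates GBP and other genes, had 520 counts in shMBD2 and 297 in shNC (17.6 and 10.3 TPM), a log2FC of 0.80 (interval 0.59 to 1.01). STAT2, a part of ISGF3, was lower, with 549 and 632 counts (29.3 and 34.6 TPM, -0.21, interval -0.38 to -0.04). IRF9, the DNA-binding part of ISGF3, had 16 and 15 counts (interval -1.03 to 1.20), and its span lies within that of another annotated gene on the same strand, which had 23 and 18. IRF7, the factor that amplifies interferon production, had 52 and 49 (0.08, interval -0.51 to 0.67).

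The 5 genes also driven by NF-kB had a median log2FC of 2.04 and a range of 0.08 to 3.54, and their summed level was 46.3 TPM in shMBD2 and 18.7 in shNC. Among them OASL, GBP1 and GBP2 were above 1 (60%, beside 5.48% of all genes). IRF1 was below 1 with an interval above 0, and IRF7 spanned 0. The type I interferon core had a median of 0.38 over 37 compared genes and summed to 798 and 673 TPM. In the core, 8 genes were above 1 (21.6%, beside 5.48% of all genes) and 1 was below -1 (beside 5.07%). An interval above 0 was found for 23 core genes (62.2%, beside 19.7%) and one below 0 for 3 (8.11%, beside 18.4%). IFI44L and IFI44 of the core lay above the median of the NF-kB genes, and IRF7 of the NF-kB genes lay below the core's median. The difference between the classes was not tested, since 5 genes of 1 library pair are not replicates.

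The size of the log2FC differed with the depth of the gene. From 10 to under 100 counts summed over both libraries, 7 of 12 members were above 1, beside 13.4% of genes at that depth, and 6 had an interval above 0, beside 9.58%. From 100 to under 1000 counts, 4 of 23 members were above 1 (TRIM22, IFI6, GBP1 and GBP2), beside 2.47%, and 16 had an interval above 0, beside 18.5%. At 1000 counts or more, 0 of 7 members were above 1, beside 1.06%, and 5 had an interval above 0, beside 30.4%. Of the lower values, ISG20 was the 1 member of 23 below -1 in the middle range, beside 1.72% of genes, while 0 of 12 and 0 of 7 were below -1 in the others, beside 13.7% and 0.375%. Intervals below 0 were found for 0 of 12 members, beside 9.24% of genes, for 2 of 23, beside 18.9%, and for 1 of 7, beside 26.8%. With at least 100 counts, 4 of 30 members were above 1, beside 1.78%, and 21 had an interval above 0, beside 24.4%. The medians of the members in the 3 ranges were 1.11, 0.59 and 0.24, and those of all genes were -0.0086, -0.0089 and 0.012. Every member with 1000 counts or more lay between -0.21 and 0.39.

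**Figure D3:**
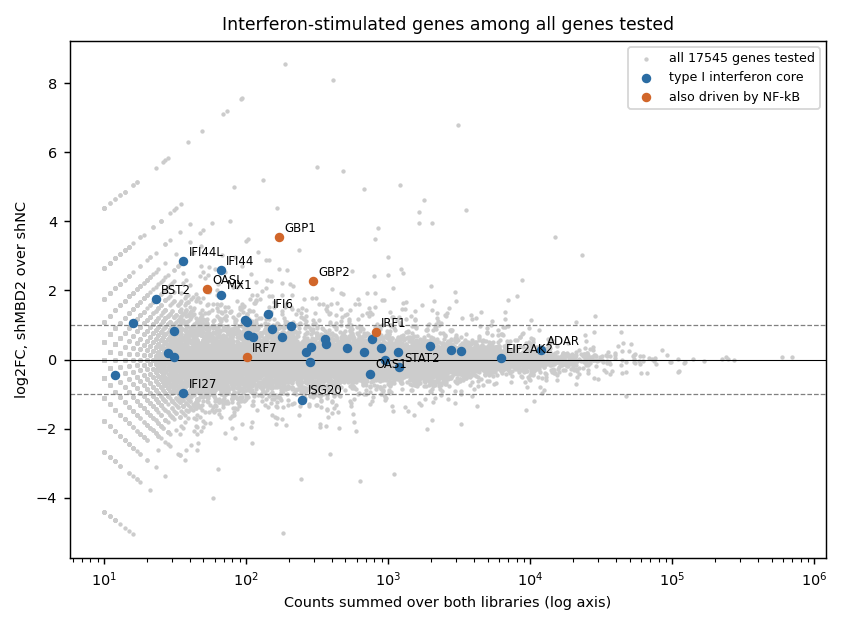
The log2FC of shMBD2 over shNC is plotted against counts summed over both libraries (log axis) for all 17545 compared genes in grey, with the type I interferon core in blue and the genes also driven by NF-kB in orange. The dashed lines mark 1 and -1. Members above 1 lie at the left, under 1000 counts, and the members at the right, such as ADAR at 0.28 and EIF2AK2 at 0.04, sit close to 0.

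Apart from IFNE, the interferon genes themselves were close to undetected. Of 17 type I ligand genes, 12 had no count in either library, IFNB1 among them, 4 had at most 2 counts in a library, and IFNE, an epithelial type I interferon, had 57 counts in shMBD2 and 58 in shNC (log2FC -0.03, interval -0.59 to 0.52). The 5 type II and III ligand genes had at most 1 count each, and IFNG had none.

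The receptors and kinases were present in both libraries, and 5 of 9 had an interval that spanned 0. An interval above 0 was found for 3 (33.3%, beside 19.7% of all genes) and one below 0 for 1 (11.1%, beside 18.4%). IFNAR1 had 1114 and 1069 counts (log2FC 0.05, interval -0.07 to 0.17) and TYK2 had 739 and 712 (0.04, interval -0.11 to 0.20). IFNAR2 had 247 and 180 (0.45, interval 0.16 to 0.73), JAK1 had 5249 and 4745 (0.14, interval 0.08 to 0.19) and JAK2, a kinase of the interferon gamma receptor, had 318 and 389 (-0.30, interval -0.52 to -0.08). The exception was IFNGR1, the ligand-binding chain of the interferon gamma receptor, with 2340 counts in shMBD2 and 604 in shNC (191 and 50.7 TPM), a log2FC of 1.94 (interval 1.82 to 2.08). Its partner IFNGR2 had 331 and 284 counts (0.21, interval -0.02 to 0.45). IRF3, the factor downstream of RNA sensors, had 816 and 749 (0.11, interval -0.03 to 0.26). IRF5 was lower, with 115 and 174 (-0.60, interval -0.96 to -0.26).

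Among 9 compared sensors and adaptors, 2 were above 1, beside 5.48% of all genes, and 6 had an interval above 0, beside 19.7%. DDX58, the RNA sensor RIG-I, had 322 counts in shMBD2 and 146 in shNC (log2FC 1.13, interval 0.85 to 1.42), while the related sensor IFIH1, or MDA5, had 127 and 102 (0.31, interval -0.08 to 0.70). IKBKE, a kinase of IRF3 and IRF7, had 391 and 143 (1.44, interval 1.16 to 1.73), and its relative TBK1 had 1137 and 920 (0.30, interval 0.17 to 0.42). Of 6 compared genes listed as feedback inhibitors, 2 had an interval above 0 (33.3%, beside 19.7% of all genes). An interval below 0 was found for 1 (16.7%, beside 18.4%). SOCS3 had 353 and 250 counts (0.49, interval 0.25 to 0.73) and NLRC5 had 116 and 68 (0.76, interval 0.32 to 1.22). PIAS1 was lower, with 828 and 937 (-0.19, interval -0.32 to -0.05). SOCS1 had 10 and 4, an interval of -0.48 to 3.44, and the intervals of PTPN2 and IRF2BP2 also spanned 0.

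Outside the 44 genes, 27 of 30 other interferon-stimulated genes were compared, with a median log2FC of 0.36, and 3 were above 1, beside the 5.48% of all genes. These were IFI16, a nuclear DNA sensor (175 and 39 counts, 2.14, interval 1.65 to 2.70), APOL1 (638 and 167, 1.92, interval 1.68 to 2.18) and PARP10 (80 and 38, 1.06, interval 0.49 to 1.66). An interval above 0 was found for 17, beside 19.7%, and below 0 for RNF213 and CNP, beside 18.4%. LGALS3BP, a secreted glycoprotein, had 308 TPM in shMBD2 and 162 in shNC (0.96, interval 0.88 to 1.03). Among 14 genes listed as interferon-gamma-type, 9 were compared, 7 had an interval above 0, beside 19.7% of all genes, and the median log2FC was 0.96. Which type of interferon or other signal these genes answer to in TFK1 cells was not tested. CXCL10, a chemokine for T cells, had 11 counts in shMBD2 and 0 in shNC. Against a floor of 3 counts in the shNC library its ratio was 3.64. This ratio leaves out counting error, and the interval of the log2FC began at 1.32. The median stayed at 0.96 with CXCL10 at that ratio, because it still lay above the middle gene, PSMB8. GBP4 had 28 and 1 counts (interval 2.20 to 10.15) and PSMB8, an immunoproteasome subunit, had 273 and 139 (0.96, interval 0.67 to 1.27). HLA-DRA and CXCL9 had no count in either library.

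**Figure D4:**
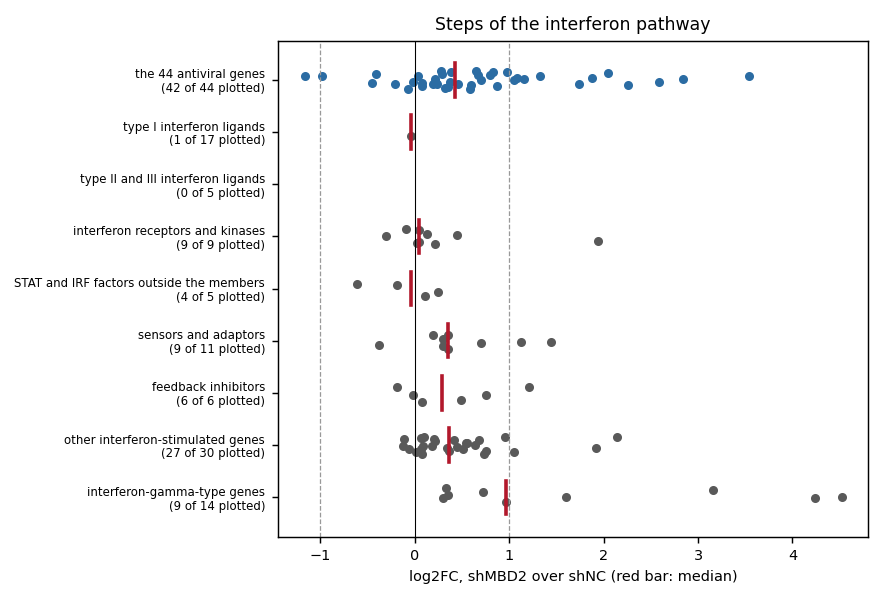
The log2FC of shMBD2 over shNC (horizontal axis) is plotted for each compared gene at each step of the interferon pathway, with a red bar at the median of the step and dashed lines at -1 and 1. The ligands are almost all missing for lack of counts, the receptors have a median of 0.05 with IFNGR1 alone above 1, and the interferon-gamma-type genes have the highest median, 0.96. CXCL10, at 0 counts in shNC, is drawn at a fitted value that depends on the prior count.

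Returning to the sequences printed above, the 24 compared members with ISRE letters had a median log2FC of 0.60 and a range of -1.16 to 3.54, and 7 of them were above 1. The 10 without the letters had a median of 0.25 and a range of -0.41 to 0.80, and none was above 1. A window was matched for only 10674 of the 17545 compared genes, so the shares that follow do not cover all genes. Among those, 7.80% of the 436 with the letters and 4.01% of the 10238 without were above 1, but the 436 include the 24 members. Outside the members the shares were 6.55% of 412 and 4.02% of 10228, with medians of 0.046 and 0.0065. With the pathway lists also left out, 5.82% of the 395 with the letters were above 1. Members with the letters thus included the highest value and also the lowest, ISG20, and the difference was not tested. Windows for OASL, MX2, TRIM22 and GBP2, which were above 1, were not analysed here. The GAS letters TTCNNNGAA, which read the same on both strands and overlapped the ISRE letters in BST2, IFI27, IFITM1 and MX1, stood in 12 of the 34 members (35.3%) and in 9.38% of all genes with a window. Members with GAS letters had a median of 0.37 and those without had 0.42. The NF-kB letters were GGGA or GGGG followed by any pair of bases and TTCC. They stood in 2 of the 34 members (5.88%), OAS3 and MX1, against 4.04% of all genes with a window. Of the 5 genes also driven by NF-kB, only GBP1 and IRF1 had a window, and neither window held the NF-kB letters. With so few windows these letters could not be compared between the classes. A match says only that these letters are present in the window.

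**Figure D5:**
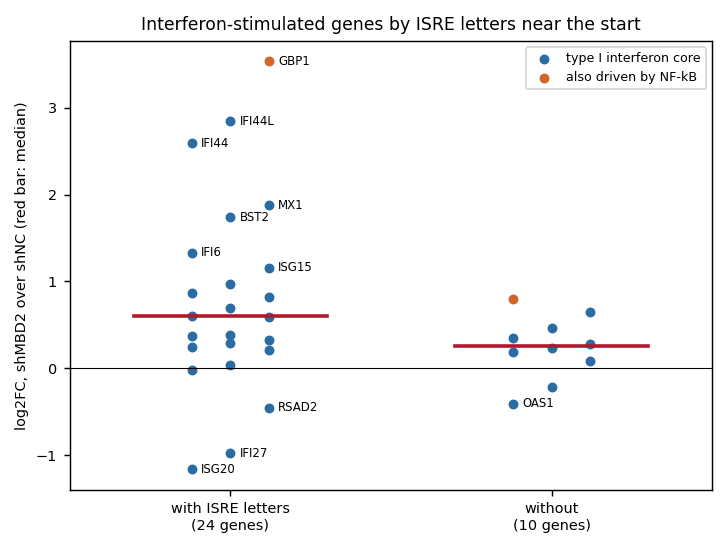
The log2FC of shMBD2 over shNC (vertical axis) is plotted for the 34 compared genes with a promoter window, split by whether the ISRE letters stood in the window, with the red bar at the median of each side (0.60 for 24 genes and 0.25 for 10). Core genes are blue and the genes also driven by NF-kB are orange, and the values above 1 all lie on the left.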

How the data were processed

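Total RNA from TFK1 cells was sequenced as 1 library each of shMBD2 and shNC. The authors deposited raw counts per gene and TPM per gene. The submitters' processing notes name fastp, HISAT2 2.1.0, featureCounts, DESeq 1.18.1 and GRCh38.p13 without roles, and the annotation and strand setting are not given in the sources used here. The positions in the tables matched GENCODE 29 (GRCh38) for only 4 of the 44 genes, so coordinates were taken from GENCODE 29 by Ensembl identifier. Symbols repeated over several identifiers were kept once per symbol and value. Then the deposited TPM values summed to 1000000 in each library. No column of another sample was present. Before this, 46 overflow lines without a gene identifier were dropped. Symbols that a spreadsheet had turned into dates (28) were left as they were.

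Counts were scaled by TMM (edgeR 4.0.16, R 4.3.3), and a log2FC was computed with a prior count of 0.5 wherever both libraries together held 10 counts or more. An exact Clopper-Pearson interval of 95% on the read split (scipy 1.17.1) was turned into a log2FC. The steps were tested on simulated data. No p-value was computed because each group has 1 library. Alternatives were DESeq2 1.42.0 size factors, total counts, upper-quartile factors, log2 of TPM with a pseudocount of 0.1 or 1, other prior counts and other count minimums. The named genes were the 44 members, MBD2, the genes of the pathway and marker lists, and genes that overlap a member. A gene of the pathway lists is not reported here. The members and lists were chosen with earlier results of these data known. Promoter sequences came from RefSeq (GRCh38.p14), with a window for 35 of the 44 members.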

Additional observations from a re-analysis of the deposited data

How the results depend on the processing

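No paired analysis was possible because shMBD2 and shNC were represented by 1 library each. The variation between cultures and between shRNAs is unknown, and low counts limit the precision for MX2, IFITM1, IFI27, RSAD2, CMPK2 and IRF9. No count, no median and no compared member changed direction under the alternatives run, while the pathway genes TRIM5 and IL10RB, both near 0, changed sign under some. The number of members with a log2FC above 1 was 11, and it was 4 with at least 100 counts, where 30 members were counted and 1.78% of genes were above 1, and 8 to 12 under the other alternatives. Members below -1 numbered 0 with log2 of TPM plus 1 and 2 with a prior count of 0.1, instead of 1. Listed pathway genes above 1 numbered 11 of 66 compared (16.7%, beside 5.48% of all genes). They numbered 6 with log2 of TPM plus 1, 18 with at least 1 count and 7 with at least 100 counts, where 1.78% of genes were above 1. Changing the count minimum also changes how many pathway genes are counted, so these numbers are not shares of the same list. The median log2FC of the members stayed between 0.33 and 0.53, that of the core between 0.31 and 0.39 and that of the genes also driven by NF-kB between 1.31 and 2.08. Members with an interval above 0 numbered 20 to 28. The value of 20 came from a comparison chosen after seeing the data, which left out 13 members whose span overlaps a gene with at least 5% as many counts. With log2 of TPM plus 1 the log2FC of GBP1 was 2.51 and that of IFI44L was 0.80, outside their counting intervals, and the other 40 compared members stayed inside theirs. Under the same setting 3 pathway genes moved outside theirs, IFI16 to 1.64, GBP4 to 0.81 and CIITA to 0.28.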
